A study of Mus musculus with 16 samples.

Results

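The Hox genes of the 4 mouse clusters were followed through 16 libraries of pluripotent and trophoblast cells, kept apart or assembled, with or without BMP4. Members were all gene symbols made of Hox, a cluster letter from a to d and a paralog number, which took 38 of the 31663 symbols in the table. Values are given for 37 of these: 10 in cluster A, 10 in cluster B, 9 in cluster C and 8 in cluster D. Mouse induced pluripotent stem cells (iPSC) marked by GFP and trophectoderm stem cells (TSC) marked by RFP were seeded either as a mixture or as 1 cell type alone, and harvested on day 3. The 8 groups, with 2 libraries each, were iPSC alone, TSC alone, the green part of the mixed structures (assembled iPSC part) and their red part (assembled TSC part), each untreated or given BMP4, a signalling protein of the TGF-beta superfamily, for the final 24 hours. All groups shared the same medium, with FGF4 at 12.5 ng/ml, heparin at 500 ng/ml and serum, on 5% Matrigel. The sources used here do not give the dose of BMP4, the origin of the cell lines or whether both libraries of a group are separate cultures. The p-values therefore reflect only how these libraries vary, which may be technical. A library was made by Smart-seq2, a protocol for very small RNA inputs, from 1 picked colony or from 1 of the hand-separated parts of a structure.

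Hox genes encode homeodomain transcription factors that give cells their position along the head-to-tail axis. Within a cluster they are switched on in order, from the 3′ end (paralog group 1, anterior) to the 5′ end (the high numbers, posterior), beginning in the primitive streak of the gastrulating embryo. Retinoic acid, Wnt, FGF and Cdx factors promote this opening, and Polycomb complexes keep the clusters silent in pluripotent cells.

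Levels are deposited FPKM values, which divide fragments by transcript length and library size, so that levels of different genes can be set side by side. Changes are differences of log2(FPKM + 1) ± SE from limma, fitted to the 8 groups together, with p-values adjusted by Benjamini and Hochberg over the 13406 genes that reached 1 FPKM in 2 or more libraries. On that scale the fold of a weakly expressed gene is understated. The number of reads behind a value is unknown, so a gene listed at 0 has no known upper limit.

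The labels were checked against markers. Pou5f1, the pluripotency factor Oct4, was at 49.5 to 326 FPKM in the 8 libraries of iPSC origin and at 0.0335 to 13.2 in the 8 of TSC origin. Elf5, a trophoblast stem cell factor, was at 5.51 to 224 FPKM in the libraries of TSC origin and at 0 to 0.413 in 7 of the 8 of iPSC origin. A pair of libraries stood apart. Replicate 2 of the treated assembled iPSC part held Elf5 at 50.4 FPKM, against 0.193 in replicate 1. Replicate 2 of the assembled TSC part held Pou5f1 at 13.2 FPKM and the streak gene T (Brachyury) at 16.7, against 2.33 and 0.539 in replicate 1. Both are called mixed libraries here, from these genes alone. Only some of the results that rest on them are also given without them. No label names them so, and the marker list sums did not all set them apart. In replicate 2 of the treated assembled iPSC part the 9 trophoblast markers summed to 451 FPKM, against 534 in replicate 1. In replicate 2 of the assembled TSC part the 7 pluripotency markers summed to 704 FPKM, against 814 in replicate 1. The 7 streak and nascent mesoderm markers summed to 29.5 FPKM there, against 2.83. Over whole marker lists the lineages overlapped. The 7 pluripotency markers summed to 429 to 1332 FPKM in iPSC origin and to 204 to 814 in TSC origin. The 9 trophoblast markers summed to 124 to 790 FPKM in iPSC origin and to 419 to 6846 in TSC origin. The summed level of 6 fibroblast or stroma markers was 0.608 to 3.81 FPKM over all libraries.

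Most of the Hox genes were near silent in every group. Of the 37 members described, 3 met that minimum, Hoxb1, Hoxd1 and Hoxb13, which is 8.11% against 42.3% of all genes in the table. A further 32 members never reached 1 FPKM in any library, and 28 were listed at 0 in at least 8 of the 16 libraries. Hoxd12 was listed at 0 in all of them. By position, 2 of the 7 anterior members (paralog groups 1 to 3), 0 of the 14 central members (groups 4 to 8) and 1 of the 16 posterior members (groups 9 to 13) could be tested. By cluster, these were 0 members of A, 2 of B, 0 of C and 1 of D. The highest value in cluster C was 0.861 FPKM, for Hoxc10 in replicate 2 of TSC alone.

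**Figure D1:**
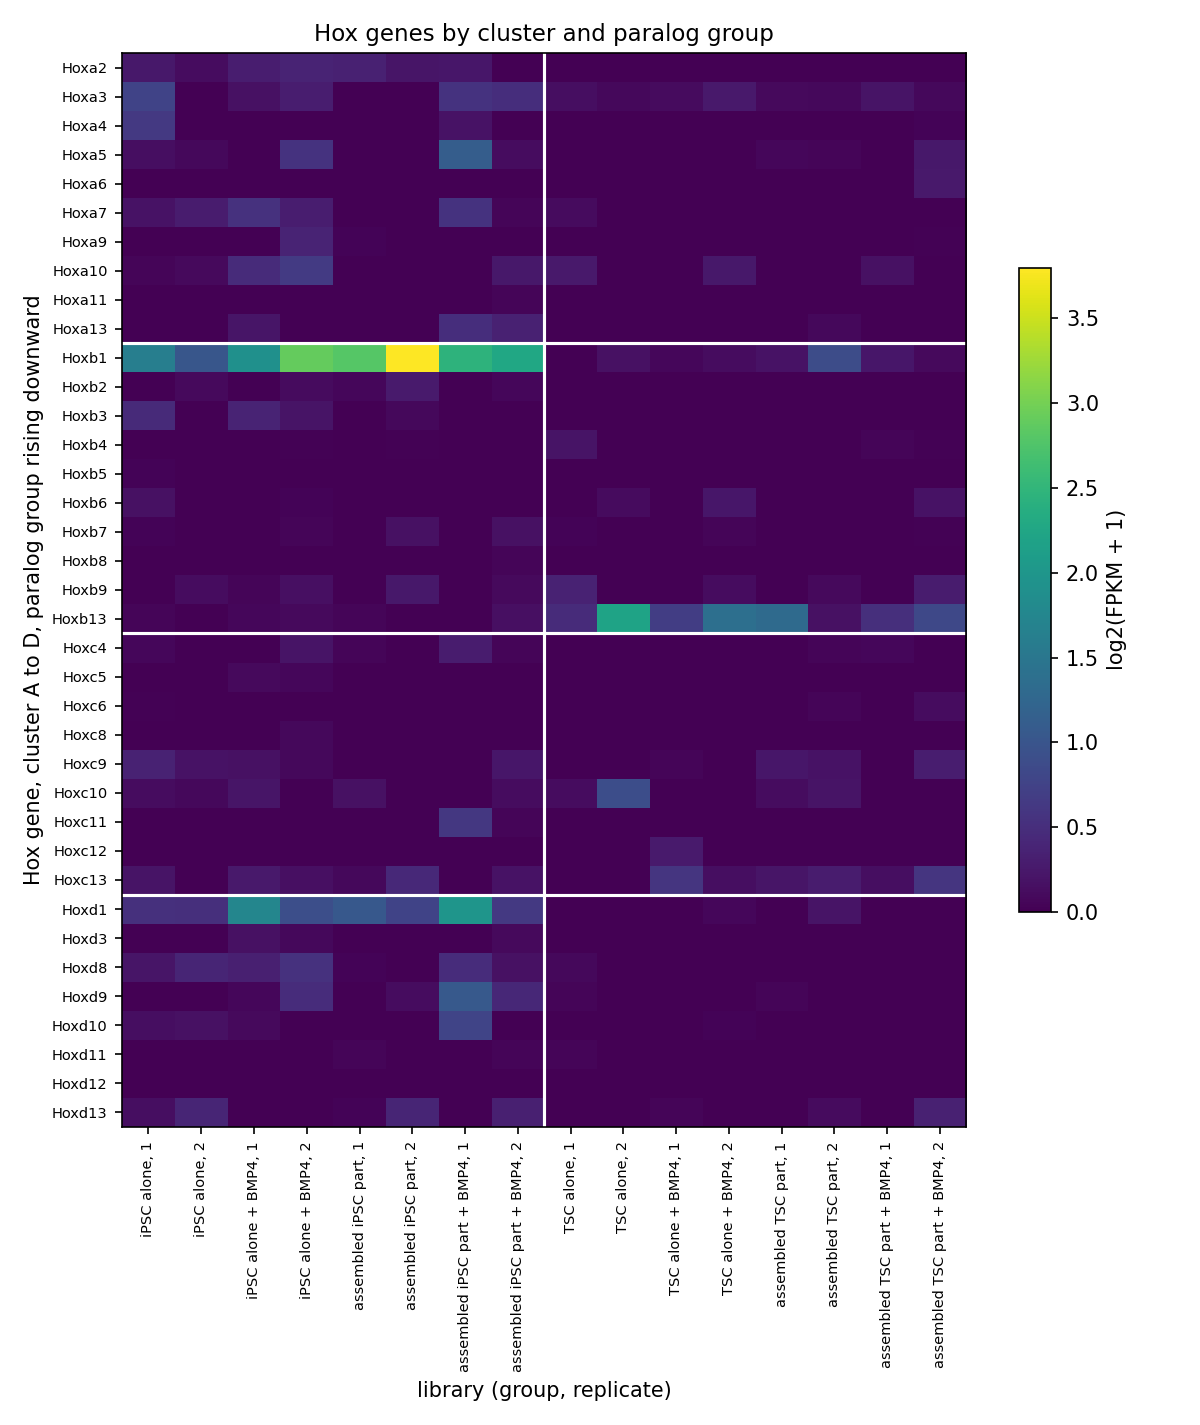
Level of each of the 37 Hox genes (rows, cluster A at the top to D at the bottom, paralog number rising downward within a cluster) in each of the 16 libraries (columns, iPSC origin to the left of the vertical line and TSC origin to the right). Colour gives log2(FPKM + 1) and the horizontal lines part the clusters. Signal lies in the rows of Hoxb1 and Hoxd1 and, in libraries of TSC origin, in Hoxb13, and replicate 1 of the treated assembled iPSC part shows faint signal in Hoxa5 (1.17 FPKM) and Hoxd9 (1.08 FPKM).

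Hoxb1 and Hoxd1 held much of this Hox signal in iPSC-derived cells. Together they made up 43.9% to 91.1% of the summed FPKM of the 37 genes in the 8 libraries of iPSC origin, and 0% to 49.8% in the 8 of TSC origin. The share was 43.9% and 48.4% in iPSC alone, 64.6% and 65.0% with BMP4, 91.1% and 90.0% in the assembled iPSC part and 56.2% and 61.5% in that part with BMP4. The untreated assembled iPSC part thus had the highest shares of the 8 groups, in both libraries. In TSC origin the highest share, 49.8%, was in the mixed library, and the other 7 libraries were at 16.7% at most. Hoxb13 took 6.13% of the Hox signal in that mixed library and 26.0% to 76.3% in the other 7.

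**Figure D2:**
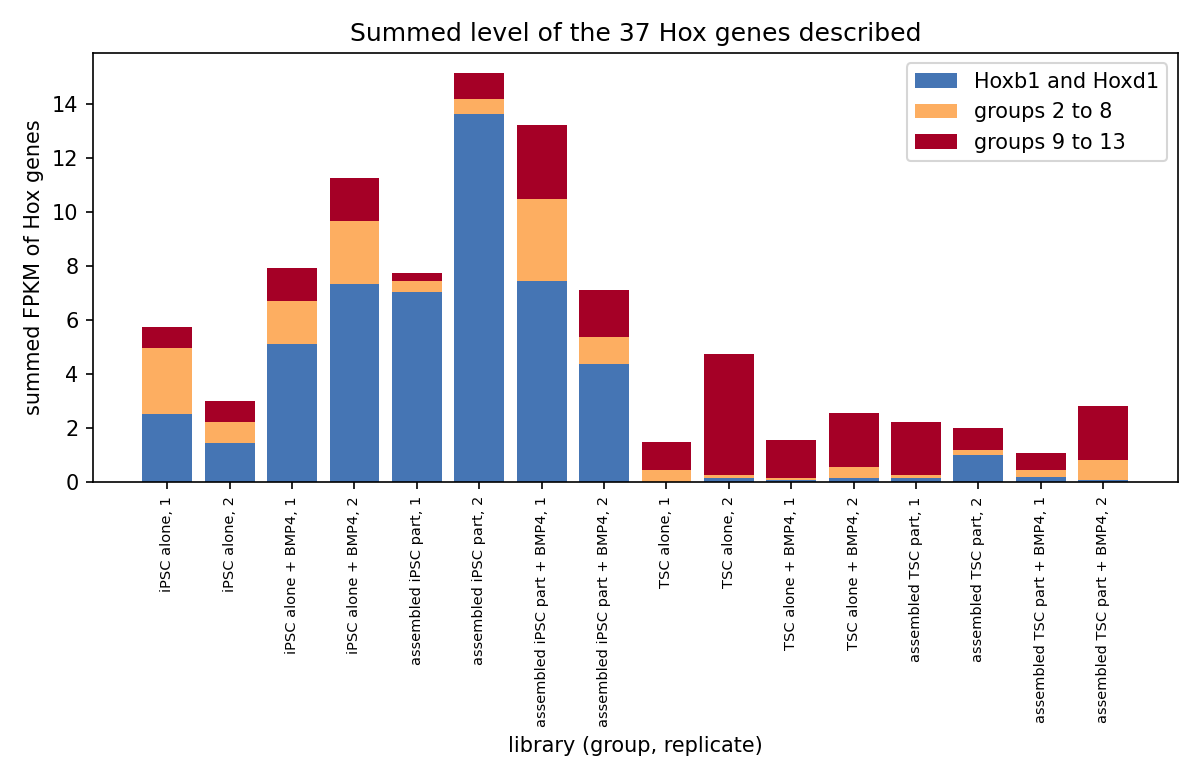
Summed FPKM of the 37 Hox genes in each library, stacked (blue, Hoxb1 and Hoxd1; orange, groups 2 to 8; red, groups 9 to 13). The sum ran from 2.99 to 15.1 FPKM in the 8 libraries of iPSC origin and from 1.07 to 4.72 in the 8 of TSC origin.

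The step from Hoxb1 and Hoxd1 to their neighbours was sharp. Hoxb1 exceeded Hoxb2, the next gene of its cluster, in 15 of 16 libraries, and Hoxb2 was at 0.214 FPKM at most. Hoxd1 exceeded Hoxd3 in 8 of 8 libraries of iPSC origin, with Hoxd3 at 0.128 FPKM at most. The 5 members of groups 2 and 3 reached 0.692 FPKM at most.

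Hoxb1, which in the embryo marks the primitive streak and later the fourth hindbrain segment, was the highest Hox gene and high in cells of iPSC origin. It was at 2.08 and 1.02 FPKM in iPSC alone and at 2.75 and 6.44 with BMP4. In the assembled iPSC part it was at 5.97 and 12.9, and with BMP4 at 4.48 and 3.82. Each assembled or BMP4-treated library was therefore above both libraries of untreated iPSC alone, and the untreated assembled part had the highest mean, 9.44 ± 4.91 FPKM (SD, n = 2) against 1.55 ± 0.750. In TSC alone it was listed at 0 and at 0.120 FPKM, with BMP4 at 0.0466 and 0.0926, in the assembled TSC part at 0.132 and 0.849 and with BMP4 at 0.179 and 0.0662. The highest of these, 0.849, was in the mixed library with T at 16.7 FPKM, and the lowest library of iPSC origin was still above it.

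RefSeq's promoter table (build GRCm38.p6) held an entry for 21 of the 37 members, Hoxb1 and Hoxd1 among those that could be tested. The 250 bases before the start of these genes are shown because they carry different motifs for the factors discussed here, the bipartite site of Hox and Pbx proteins and the GC-rich site of the SMAD proteins that transmit BMP4. The Hoxb1 promoter lies on the plus strand at chr11:96365508-96365757, and the Hoxd1 promoter on the plus strand at chr2:74762730-74762979. Capitals mark a match to the Hox-Pbx site.
Hoxb1: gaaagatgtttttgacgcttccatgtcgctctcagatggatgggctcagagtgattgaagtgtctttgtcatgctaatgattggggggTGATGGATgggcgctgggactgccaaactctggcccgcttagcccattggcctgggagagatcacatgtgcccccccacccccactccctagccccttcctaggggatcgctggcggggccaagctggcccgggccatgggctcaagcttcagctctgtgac
Hoxd1: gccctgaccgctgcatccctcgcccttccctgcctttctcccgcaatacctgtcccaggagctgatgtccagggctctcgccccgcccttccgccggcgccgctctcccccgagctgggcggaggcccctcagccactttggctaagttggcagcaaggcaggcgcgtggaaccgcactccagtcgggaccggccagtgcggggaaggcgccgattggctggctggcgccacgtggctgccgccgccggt
Both strands were searched for 4 motifs, and no matches in these stretches overlapped. The Hox-Pbx letters TGATNNAT occurred once before Hoxb1, as TGATGGAT, 162 to 155 bases before the start, and not before Hoxd1. The SMAD letters GGCGCC occurred 3 times before Hoxd1 (155 to 150, 44 to 39 and 26 to 21 bases before the start) and not before Hoxb1. The Cdx letters TTTATG and the T-box letters AGGTGTGA occurred in neither. Of the 32851 entries of this length in the table, 7.68% held the Hox-Pbx letters, 9.59% the SMAD letters, 10.8% the Cdx letters and 1.12% the T-box letters. These matches describe the sequence only. The GC content was 59.2% before Hoxb1 and 71.6% before Hoxd1.

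Between the lineages, taken as the mean of the 4 groups of TSC origin minus the mean of the 4 of iPSC origin, 3 of the 3 tested Hox genes passed the threshold (1 higher and 2 lower in TSC origin), where 48.8% of all tested genes did, 24.8% higher and 24.0% lower. The minimum level itself favoured this count, since Hoxb1 (8 libraries) and Hoxd1 (3) reached 1 FPKM in libraries of iPSC origin alone and Hoxb13 (3) in libraries of TSC origin alone, so nothing is read from it. With no minimum 7 of 36 Hox genes passed in limma, or 19.4%, against 30.8% of 22536 genes. Hoxb1 was lower in TSC origin by limma (log2 change -2.13 ± 0.20, adjusted p = 3.96e-06). Its 8 values of iPSC origin (lowest 1.02, median 4.15, highest 12.9 FPKM) lay above the 8 of TSC origin (0, 0.106 and 0.849). The share of all genes that part the lineages in this way is not given here. In bulk libraries such as these, fewer cells that express a gene and less RNA per cell cannot be told apart. The summed level of 7 streak and nascent mesoderm markers moved the same way, from 74.8 to 899 FPKM in iPSC origin and from 1.60 to 29.5 in TSC origin, and its part in the result was not tested. The calls of the 3 genes held in each of the 22 alternatives run. All but the fit with no minimum kept genes by the same minimum level, so they do not lift its limit, which the p-values of these 3 genes share. Rescaling by the upper quartile shifted the median change of all genes from -0.01 to -0.18 and the split of calls from 3325 higher and 3221 lower to 2363 and 4381, and under it Hoxb1 (-2.22), Hoxd1 (-1.03) and Hoxb13 (0.81) kept their directions.

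Hoxd1, the cluster D member of group 1, was also a gene of iPSC origin. It was at 0.443 and 0.427 FPKM in iPSC alone, at 2.36 and 0.879 with BMP4, at 1.07 and 0.703 in the assembled part without BMP4 and at 2.95 and 0.547 with it. Each of the 6 treated or assembled libraries was above both untreated libraries of iPSC alone, with wide gaps between treated replicates. In TSC origin it was listed at 0 in 6 of 8 libraries and at 0.0450 and 0.148 in the others, the higher of which was the mixed library. Over the lineages it was lower in TSC origin by limma (log2 change -0.98 ± 0.19, adjusted p = 9.66e-04).

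Hoxb13, the most posterior gene of cluster B, known from the tail bud and the prostate, ran the other way. It was at 0.381 and 3.60 FPKM in TSC alone, at 0.613 and 1.60 with BMP4, at 1.49 and 0.123 in the assembled TSC part and at 0.427 and 0.778 in that part with BMP4. In iPSC origin its 8 values ran from 0 over a median of 0.0374 to 0.113 FPKM. The lowest value of TSC origin, 0.123 in the mixed library, was close to the highest of iPSC origin, 0.113, also in a mixed library. Hoxb13 was higher in TSC origin by limma (log2 change 0.89 ± 0.24, adjusted p = 0.00842). It stood alone at its end of the cluster, since Hoxb9, its neighbour among the members, was at 0.290 FPKM at most and below Hoxb13 in 8 of 8 libraries of TSC origin.

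**Figure D3:**
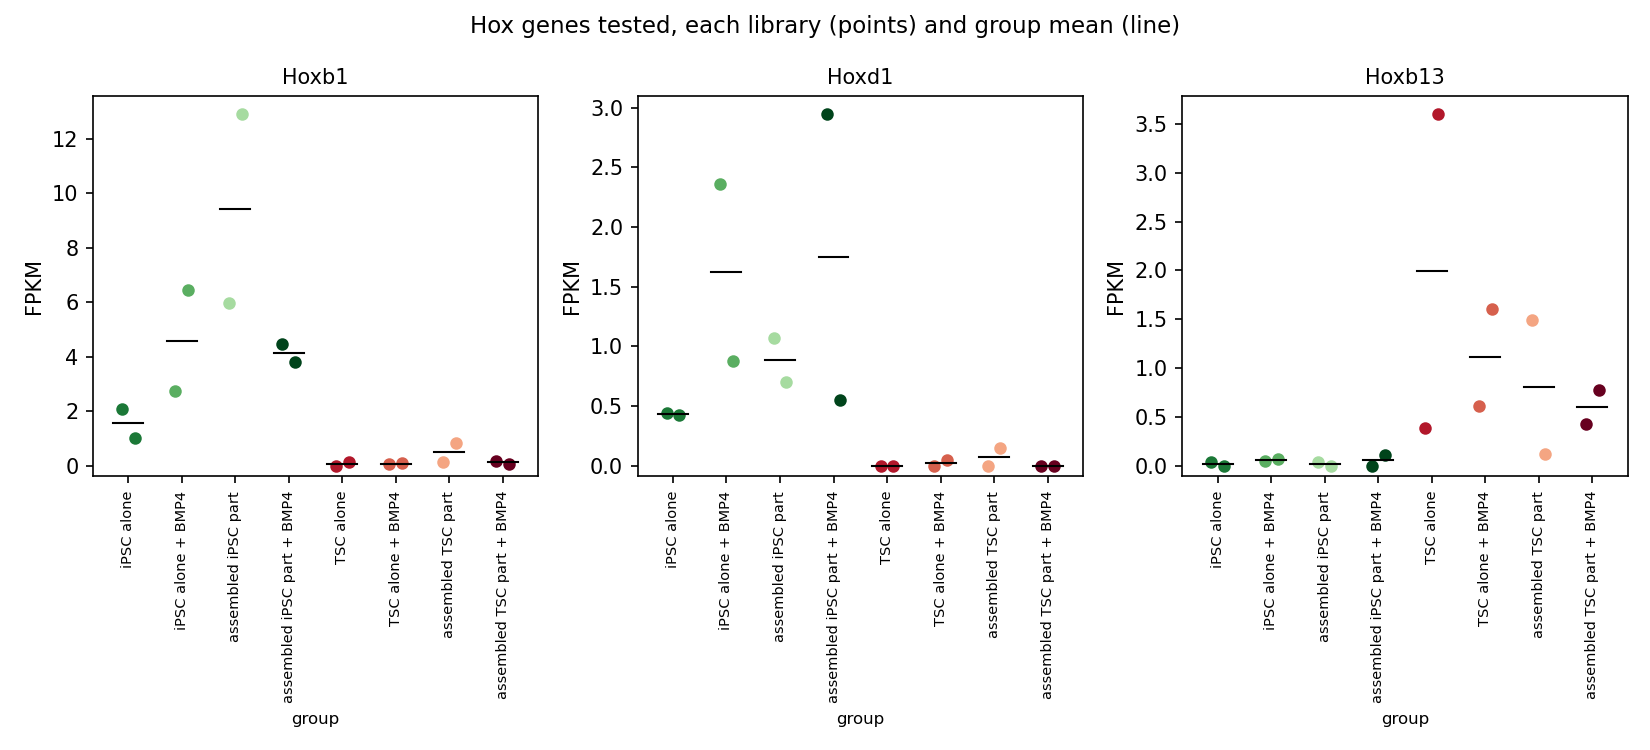
FPKM (vertical axis, linear) of the 3 Hox genes that could be tested, by group; points are libraries (2 per group, left replicate 1) and lines are group means. Hoxb1 and Hoxd1 sit near 0 in all groups of TSC origin and Hoxb13 in all groups of iPSC origin, and for Hoxb1 both points of the assembled iPSC part without BMP4 (5.97 and 12.9) lie above both points of iPSC alone (2.08 and 1.02).

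The first question of the design was what BMP4 did to cells cultured alone. In iPSC alone 0 of 3 Hox genes passed in limma, where 0.0597% of all tested genes did, and 1 Hox gene, Hoxb1, had an unadjusted p under 0.05 (log2 change 1.08 ± 0.40, adjusted p = 0.620). Hoxd1 differed by 0.81 ± 0.38 (adjusted p = 0.805, limma). In TSC alone 0 of 3 passed in limma, against 12.1% of all genes, and 0 had an unadjusted p under 0.05. Hoxb13 differed by -0.30 ± 0.48 (adjusted p = 0.748, limma).

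In the assembled structures 0 of 3 Hox genes passed with BMP4 in either part. In the assembled iPSC part 0.00746% of all tested genes passed and 1 Hox gene had an unadjusted p under 0.05, Hoxb1, here in the negative direction (log2 change -0.94 ± 0.40, adjusted p = 0.591, limma). Both treated libraries (4.48 and 3.82 FPKM) were below both untreated ones (5.97 and 12.9). Hoxd1 was at 0.40 ± 0.38 (adjusted p = 0.877, limma). In the assembled TSC part 0.5% of all genes passed and 0 Hox genes had an unadjusted p under 0.05 in limma.

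Assembly without BMP4 gave the clearest change of a Hox gene in the iPSC lineage. Hoxb1 rose in the assembled iPSC part over iPSC alone by limma (log2 change 1.98 ± 0.40, adjusted p = 0.0112), 1 of 3 Hox genes, where 11.8% of all genes passed and 2.08% were higher. Hoxd1 (0.39 ± 0.38, adjusted p = 0.554) did not pass in limma. The median change of all genes in this comparison was -0.19 and near 0.00 after quantile normalization, which changed the split of calls from 279 higher and 1306 lower to 577 and 780, and under which Hoxb1 was at 2.34. The Hoxb1 call was lost without replicate 1 (2.29, adjusted p = 0.0518) or 2 (1.68, adjusted p = 0.107) of iPSC alone or replicate 2 of the assembled part (1.48, adjusted p = 0.133), with a pseudocount of 0.1 (2.51, adjusted p = 0.0536) and in a limma fit of the 2 groups alone (adjusted p = 0.0575), and it held in the other 6 of 11 alternatives. Streak markers were higher in the same libraries, with a summed level of 359 and 476 FPKM in the assembled part against 82.6 and 74.8, and their part in the result was not tested.

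In TSC, assembly without BMP4 gave 0 of 3 Hox genes past the threshold and 0 with an unadjusted p under 0.05 in limma, where 19.2% of all genes passed. Hoxb13 was at -0.59 ± 0.48 (adjusted p = 0.427, limma). Without replicate 1 of TSC alone, which left only the library at 3.60 FPKM, it passed (-1.46, adjusted p = 0.0407), and without replicate 2 the change was 0.28.

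Among BMP4-treated cells, assembly gave 0 of 3 Hox genes past the threshold in both lineages, with 5.72% of all genes past it in iPSC and 0.298% in TSC, and 0 Hox genes with an unadjusted p under 0.05 in limma. In iPSC Hoxb1 was at -0.04 ± 0.40 (adjusted p = 0.972, limma).

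Assembly and BMP4 together, set against untreated cells alone, gave 0 of 3 Hox genes past the threshold in iPSC, where 3.86% of all genes passed, and 1 with an unadjusted p under 0.05 in limma, Hoxb1 (1.04 ± 0.40, adjusted p = 0.142). Hoxd1 was at 0.78 ± 0.38 (adjusted p = 0.228, limma). Without the mixed library, which left only the treated assembled library at 2.95 FPKM, its change was 1.46. In TSC 0 of 3 passed and 0 had an unadjusted p under 0.05 in limma, where 23.6% of all genes passed. Hoxb13, at -0.66 ± 0.48 (adjusted p = 0.353, limma), passed without replicate 1 of TSC alone (-1.53, adjusted p = 0.0276) and was at 0.21 without replicate 2. These comparisons share the untreated cells with the ones above.

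Whether BMP4 acted differently in assembled cells was tested as an interaction. In iPSC 0 of 3 Hox genes passed in limma (0.0224% of all genes did) and 1 had an unadjusted p under 0.05, Hoxb1 (-2.02 ± 0.57, adjusted p = 0.994). In TSC 0 of 3 passed in limma (1.75% of all genes did) and 0 had an unadjusted p under 0.05.

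**Figure D4:**
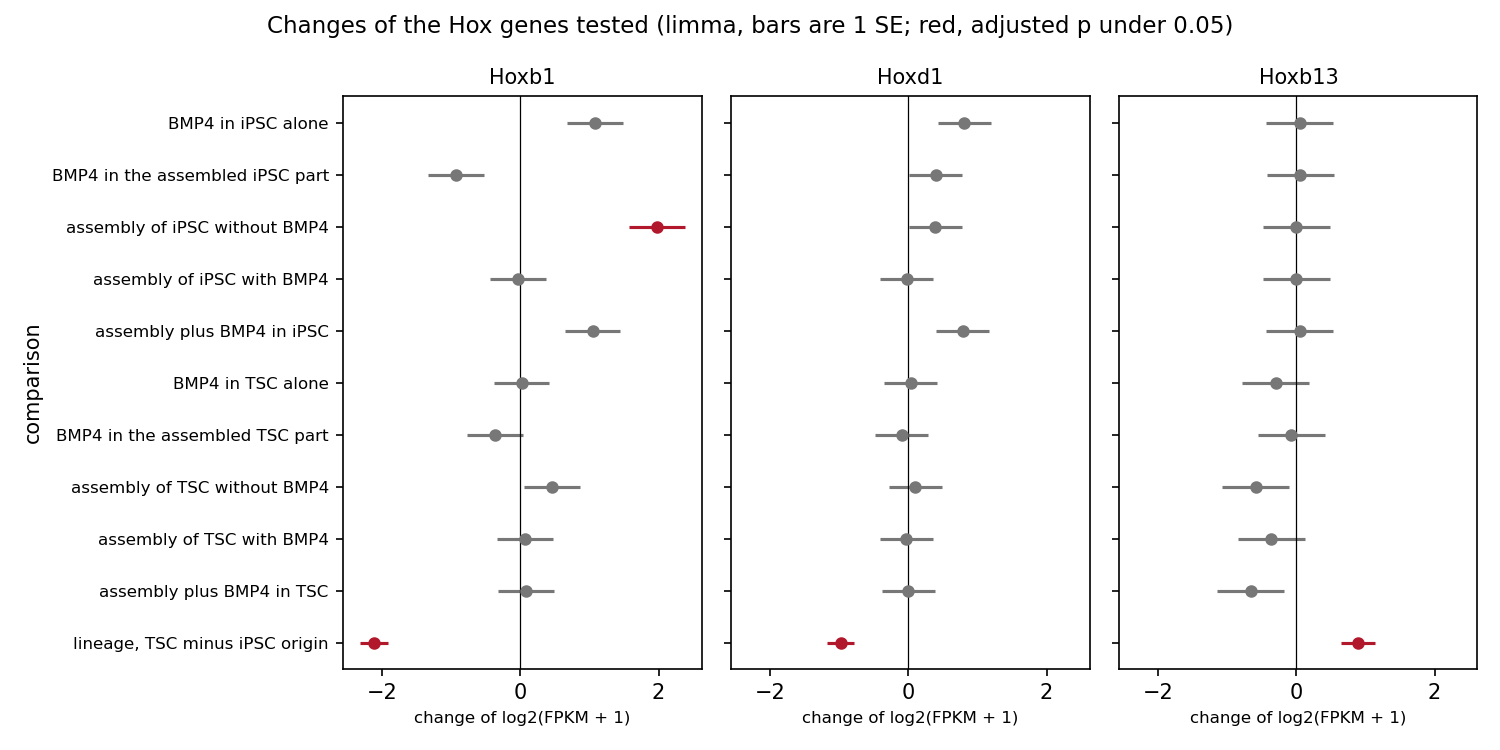
Change of log2(FPKM + 1) of the 3 tested Hox genes (panels) in the 10 comparisons of groups and between lineages; points are limma estimates, bars 1 SE, and red marks an adjusted p under 0.05. The red points are Hoxb1 in the assembly of iPSC without BMP4 (1.98) and Hoxb1, Hoxd1 and Hoxb13 between the lineages.

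The 34 members that could not be tested are described by their levels alone. Their highest value was 1.17 FPKM, the median of their highest values was 0.288, and the highest median over libraries was 0.125, for Hoxc13. Of the 33 with a value above 0, 24 had their highest value in a library of iPSC origin and 9 in one of TSC origin. Their summed level, all 37 genes but Hoxb1, Hoxd1 and Hoxb13, was 0.656 to 5.79 FPKM in iPSC origin and 0.465 to 1.97 in TSC origin. The number of Hox genes listed above 0 was 12 to 23 per library in iPSC origin and 5 to 15 in TSC origin. That count takes in values as low as 1.19e-49 FPKM, for Hoxb2 in replicate 1 of treated iPSC alone. The same count and the split of highest values over all genes are not given here, so nothing is read from either.

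Faint signal outside Hoxb1, Hoxd1 and Hoxb13 was highest in a single library, replicate 1 of the treated assembled iPSC part. Groups 2 to 8 summed to 3.04 FPKM there and groups 9 to 13 without Hoxb13 to 2.75. Replicate 2 was at 0.975 and 1.65. In treated iPSC alone groups 2 to 8 were at 1.58 and 2.33, above that replicate 2, and groups 9 to 13 without Hoxb13 at 1.18 and 1.55. Replicate 1 held the highest value of 7 of the untested members, more than any other library: Hoxa5 (1.17 FPKM), Hoxd9 (1.08), Hoxd10 (0.715), Hoxc11 (0.537), Hoxa7 (0.467), Hoxa13 (0.417) and Hoxc4 (0.221). They come from clusters A, C and D and from paralog groups 4 to 13. In replicate 2 of the same group, the mixed library, Hoxa5 was at 0.0905 FPKM, Hoxd9 at 0.344 and Hoxd10 was listed at 0. The same replicate 1 was also the highest of all libraries in T (326 FPKM against 94.8 in replicate 2), Mixl1 (214 against 9.40), a streak factor, and Cyp26a1 (123 against 1.45), which degrades retinoic acid. With all genes tested regardless of level, Hoxa13 was the 1 of 36 Hox genes that passed in limma in the treated assembled iPSC part against untreated iPSC alone (0.43 ± 0.07, adjusted p = 0.0171) and against treated iPSC alone (0.32 ± 0.07, adjusted p = 0.0443), at 0.417 and 0.277 FPKM against 0 and 0, and 0.162 and 0, so below the level at which other genes were tested. In that fit 2.55% and 2.33% of all genes passed in these comparisons. It also called Hoxa2, Hoxa7, Hoxa13 and Hoxd8 lower in TSC origin, beside the 3 genes above.

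Regulators of the clusters were taken from lists of known function. Counts on these lists are to be read against the share of all tested genes that passed in the same comparison. That share was 48.8% between lineages, and without BMP4 11.8% for assembly of iPSC and 19.2% for assembly of TSC. It was 12.1% for BMP4 in TSC alone and 3.86% for assembly plus BMP4 in iPSC. Of 6 Cdx and other ParaHox genes 3 could be tested, and Cdx4, a caudal-type factor that activates central Hox genes, was the one that passed. Cdx4 was at 0.139 and 0.460 FPKM in iPSC alone, at 2.38 and 1.88 with BMP4, at 2.76 and 1.12 in the assembled part without BMP4 and at 2.44 and 1.98 with it. In TSC origin it was listed at 0 in 6 of 8 libraries and was at 0.175 at most. Cdx4 rose with assembly of iPSC (1.13 ± 0.28, adjusted p = 0.0232, limma; 0.0586 to 0.176 with any 1 of the 4 libraries left out) and with assembly plus BMP4 (1.31 ± 0.28, adjusted p = 0.0289, limma; 0.0315 to 0.168 with 1 library left out). With BMP4 in iPSC alone the change was 1.27 ± 0.28 (adjusted p = 0.197, limma), and over the lineages Cdx4 was lower in TSC origin (-1.25 ± 0.14, adjusted p = 1.48e-05, limma). Cdx4 and Hoxb1 thus both passed with assembly of iPSC, and the central Hox members reached 1.17 FPKM at most. Cdx4 reached 1 FPKM only in treated or assembled libraries of iPSC origin. The minimum level therefore favoured its rises and its lineage call, and its p-values share that limit.

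Cdx2, which serves both trophoblast and tail formation, was at 0.277 and 0.245 FPKM in iPSC alone, at 1.99 and 6.16 with BMP4, at 0.333 and 0.478 in the assembled part without BMP4 and at 2.46 and 1.25 with it. Its BMP4 change in iPSC alone was 1.87 ± 0.62 (adjusted p = 0.522, limma), with both treated libraries above both untreated ones. In TSC origin it ran from 0 to 6.24 FPKM. Cdx1 was at 0.423 and 0.262 FPKM in iPSC alone and at 1.73 and 2.23 with BMP4 (1.15 ± 0.60, adjusted p = 0.857, limma). It was at 0.708 and 2.09 in the assembled part and at 4.05 and 0.294 with BMP4.

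Evx1, a streak homeobox gene that lies beside the 5′ end of cluster A, followed the iPSC lineage. It was at 0.486 and 0.502 FPKM in iPSC alone, at 4.33 and 4.32 with BMP4, at 3.77 and 5.27 in the assembled part and at 12.5 and 4.61 with BMP4, and at 0.391 at most in TSC origin. Evx1 rose with assembly (1.87 ± 0.36, adjusted p = 0.00853, limma; 0.0247 to 0.0997 with 1 library left out) and with assembly plus BMP4 (2.54 ± 0.36, adjusted p = 0.00682, limma; 4.36e-04 to 0.0904). With BMP4 alone the change was 1.83 ± 0.36 (adjusted p = 0.131, limma; 0.0172 without the mixed libraries). Evx1 reached 1 FPKM only in treated or assembled libraries of iPSC origin, so its p-values share the limit given for Cdx4. Its homolog Evx2, beside cluster D, was at 0.0339 FPKM at most. Of the 14 genes beside the clusters 10 could be tested, and with assembly of iPSC 1 rose (Evx1) and 2 fell (Hibadh and Cbx5), none of them in each fit with a library left out. The median change of the 10 was -0.43, against -0.19 over all genes.

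**Figure D5:**
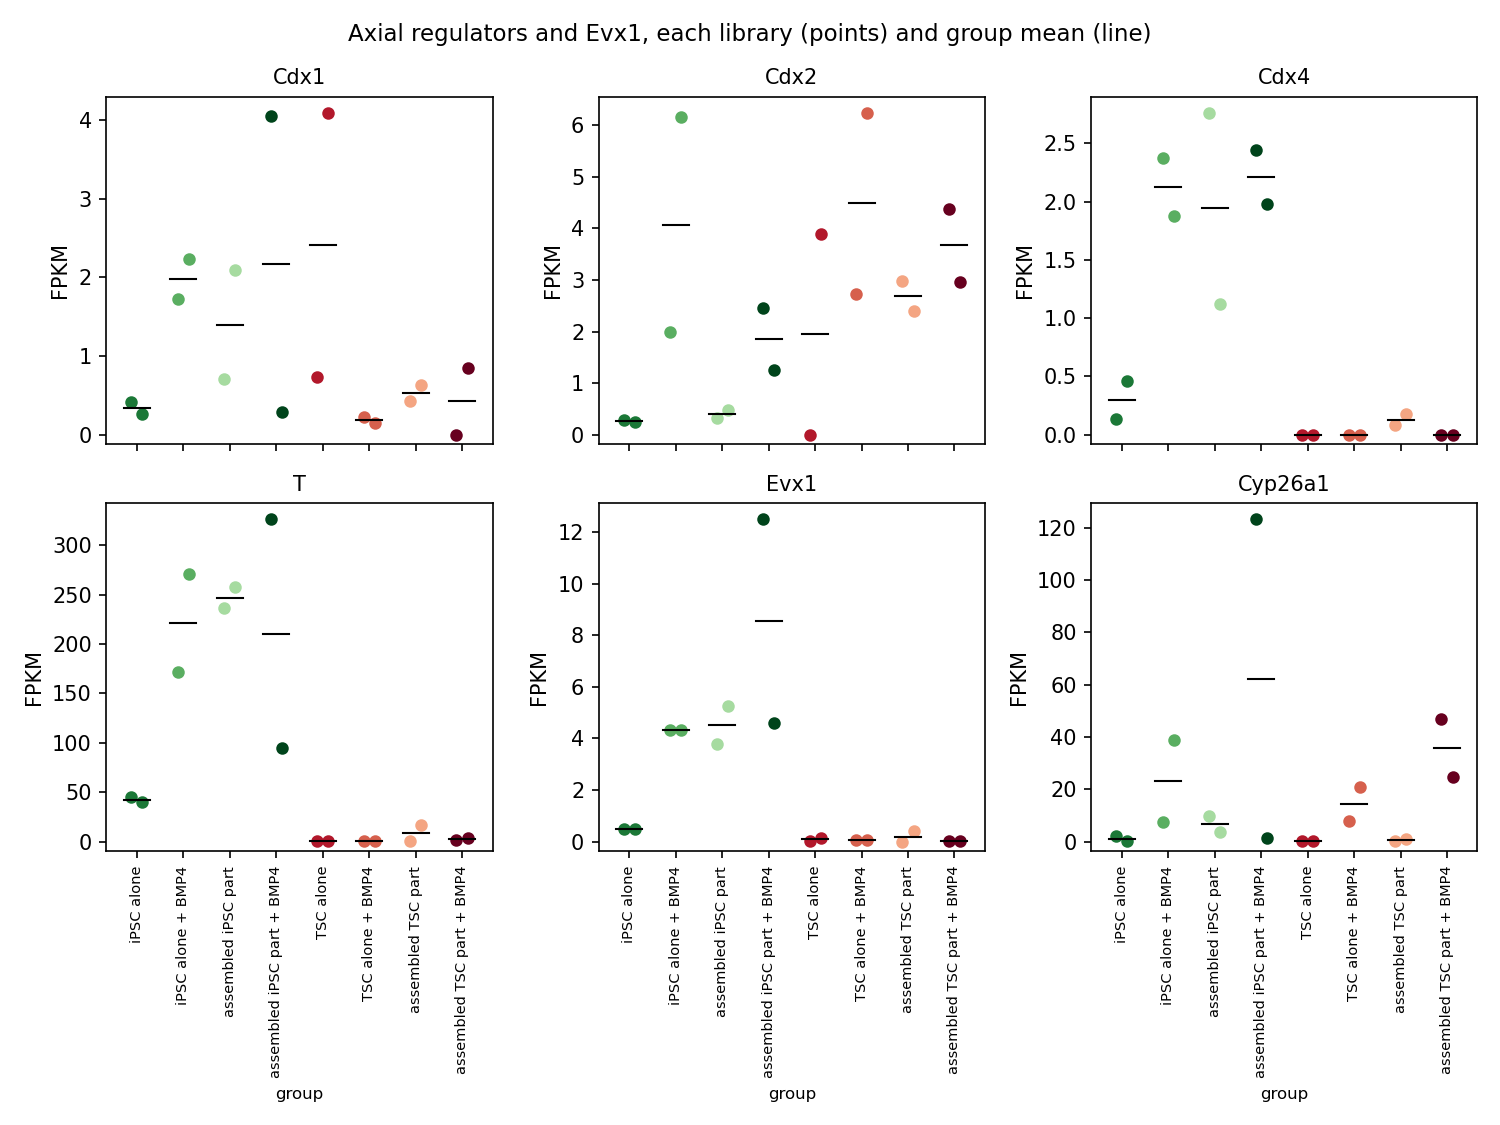
FPKM (vertical axes, linear, differing between panels) of Cdx1, Cdx2, Cdx4, T, Evx1 and Cyp26a1 by group; points are libraries and lines group means. Cdx4, T and Evx1 lie near 0 in TSC origin, and both libraries of iPSC alone lie below all other libraries of iPSC origin in these 3 genes (for Evx1, 0.486 and 0.502 against 3.77 to 12.5).

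The retinoic acid and axial list had 7 of 15 genes tested. T was at 44.6 and 39.6 FPKM in iPSC alone, 172 and 270 with BMP4, 237 and 257 in the assembled part and 326 and 94.8 with BMP4, and none of these changes passed in limma (assembly 2.52 ± 0.84, adjusted p = 0.0696; BMP4 alone 2.33 ± 0.84, adjusted p = 0.588). Rarg, a retinoic acid receptor, fell with assembly of iPSC by 1.18 on the log2 scale (adjusted p = 0.0278, limma; 0.0977 to 0.180 with 1 library left out), from 11.6 and 8.52 FPKM to 3.94 and 3.74. In TSC, Cyp26a1 rose with assembly plus BMP4 (5.02 ± 1.32, adjusted p = 0.0160, limma), from 0.0974 and 0.0721 FPKM to 47.0 and 24.8. That call did not hold with each library left out. With BMP4 in TSC alone Cyp26a1 was at 7.82 and 20.7 FPKM, and in the assembled TSC part without BMP4 at 0.381 and 1.10. Rxra, the partner of the retinoic acid receptors, fell in TSC with BMP4 alone (by 1.72, adjusted p = 0.00249, limma) and with assembly (by 2.12, adjusted p = 5.66e-04, limma). It was at 9.76 and 7.82 FPKM in TSC alone and at 0.856 to 2.29 in the other groups of TSC origin, and both calls held with each library left out. Over the lineages 2 of the 7 were higher in TSC origin (Rxra and Rara) and 3 lower (T, Fgf8 and Rarg).

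Hox proteins bind DNA with partners of the TALE class, of which 7 of 8 could be tested. Between lineages 1 was higher in TSC origin, Meis1 (2.46 ± 0.28, adjusted p = 1.80e-05, limma). In that comparison 2 were lower, Meis2 and Pbx4, and 48.8% of all tested genes passed, so nothing is read from the counts. The Pbx4 call (-0.38, adjusted p = 0.0452, limma) held in 4 of 16 fits with a library left out (adjusted p up to 0.107), and those of Meis1 and Meis2 in all 16. Meis1 was at 1.47 to 14.7 FPKM in TSC origin and at 0 to 0.378 in 7 of 8 libraries of iPSC origin, with 4.05 in the mixed library. Pbx3 rose with BMP4 in TSC alone (3.00 ± 0.38, adjusted p = 6.09e-04, limma), from 0.612 and 0.844 FPKM to 10.9 and 15.0, and kept the call with each library left out. It was the only 1 of the 7 TALE genes that passed there, and their median change was -0.38, against 0.02 over all genes. The rise of Pbx3 was not particular to BMP4. With assembly of TSC without BMP4, 2 of the 7 rose, Pbx3 (1.91, adjusted p = 0.00517, limma) and Meis1, and 1 fell, Pknox1. Pbx3 also rose with BMP4 in the assembled TSC part (1.98, adjusted p = 0.0417, limma). These further calls were not stable to leaving out a library. The largest change of Pbx3 was with assembly plus BMP4 in TSC (3.89, adjusted p = 4.81e-05, limma), to 32.2 and 18.6 FPKM. There 2 of the 7 rose (Pbx3 and Meis1) and 2 fell (Pbx2 and Pknox1), where 23.6% of all tested genes passed. In iPSC 0 of the 7 TALE genes passed in limma with BMP4, with assembly or with both.

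Polycomb subunits hold Hox clusters silent. Of 19 tested, 7 were higher in TSC origin and 5 lower, where 24.8% of all tested genes were higher and 24.0% lower. The list median was 0.13 against -0.01 over all genes. Of these 12 calls that of Ezh2, a lower one, was lost in some fits with a library left out (held in 6 of 16), and the other 11 held in all 16. Cbx8 (2.05 ± 0.24, adjusted p = 1.80e-05, limma), a chromodomain subunit of Polycomb repressive complex 1, was higher. Phc1, another subunit of that complex, was lower (-2.01 ± 0.17, adjusted p = 1.52e-06, limma), at 5.31 to 16.6 FPKM in TSC origin and 13.1 to 79.2 in iPSC origin. With assembly of iPSC 2 of 19 rose (Phc2 and Suz12) and 1 fell (Phc1), and none of these 3 calls held with each library left out. With BMP4 in iPSC alone 0 of 19 passed in limma. Of 9 Trithorax subunits and H3K27 demethylases, which counter Polycomb, 3 were higher in TSC origin (Ash2l, Rbbp5 and Kmt2a) and 1 lower (Dpy30). Between lineages 48.8% of all tested genes passed, so nothing is read from these counts. Dpy30 had a log2 change of -0.93, at 96.8 to 184 FPKM in TSC origin against 214 to 306 in iPSC origin. The Kmt2a call (0.42, adjusted p = 0.0226, limma) held in 13 of 16 fits with a library left out, and the others in all 16. With assembly of iPSC 2 of the 9 fell (Wdr5 and Men1), calls that were both lost with some libraries left out.

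The 12 direct BMP targets were followed for the response to BMP4, but some also changed without it. With assembly of TSC without BMP4, 3 rose (Id2, Bambi and Smad6) and 2 fell (Gata2 and Gata3), where 19.2% of all tested genes passed. Id2 rose by 2.84 there and by 2.72 with BMP4 in TSC alone. With BMP4 in the assembled parts 0 of 12 passed in limma, with medians of 1.08 in iPSC and 0.13 in TSC. With BMP4 in iPSC alone the median change of the 12 was 1.77, against 0.05 over all genes, and 0 of 12 passed in limma. Id1, a first-line target, went from 44.9 and 65.2 FPKM to 303 and 332 (2.53 ± 0.88, adjusted p = 0.556, limma). In TSC alone 3 of 12 rose with BMP4 (Bambi, Id2 and Smad6), where 12.1% of all tested genes passed. The median was 0.29 against 0.02 over all genes, and Bambi and Id2 kept the call with each library left out. With assembly plus BMP4 in iPSC 5 of 12 rose (Msx1, Gata3, Id2, Smad6 and Smad7), where 3.86% of all tested genes passed. The median was 1.93 against -0.15 over all genes, and 0 of 3 Hox genes passed there. None of these 5 calls held with each library left out.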

How the data were processed

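Values were the FPKM that the authors deposited, in a single table with 1 column for each of the 16 libraries. Tools named per the submitters' processing notes were CASAVA and TopHat2, with the builds mm9 and hg19 and no roles. How FPKM was computed (program, annotation, filters, strand) was not given in the sources used here, and depth is unknown. Genes that reached 1 FPKM in 2 or more libraries (13406 of 31663) were fitted as log2(FPKM + 1) with limma 3.58.1 in R 4.3.3, with an intensity trend and 8 group means sharing 8 residual degrees of freedom. There were 13 two-sided comparisons with a threshold of 0.05 on p-values adjusted by Benjamini and Hochberg over all genes tested in a comparison. Members, gene lists and comparisons were chosen with earlier results of these data known. Values in every library were given for Hox genes past the threshold in a comparison or with a group mean of at least 5 FPKM; list genes were named when past the threshold, up to 4 per list and comparison, plus Cdx1, Cdx2, Cdx4, T, Evx1, Evx2, Pou5f1, Elf5, Id1 and Cyp26a1. Rarely, genes outside this rule are named and marked, or serve as markers.

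Alternatives were a pseudocount of 0.1, no filter on low values, quantile normalization, upper quartile scaling, a fit limited to the groups compared, a replicate block and leaving out each library. A fit without the 2 mixed libraries was added after seeing the data. The fit was tested on simulated data. Promoter sequences came from RefSeq (GRCm38.p6), of which only the bases before the start were used. Python 3.11.15, pandas 2.3.3 and matplotlib 3.10.9 made tables and figures. Hoxd4 is not analysed here, and 1 Hox gene and some genes of the lists are not reported here.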

Additional observations from a re-analysis of the deposited data

Results flagged for a closer look

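Hoxb1 differed in the direction of its BMP4 change between iPSC alone and the assembled iPSC part. In iPSC alone the change was 1.08 on the log2 scale and both treated libraries (2.75 and 6.44 FPKM) were above both untreated ones (2.08 and 1.02). In the assembled part it was -0.94, and both treated libraries (4.48 and 3.82 FPKM) were below both untreated ones (5.97 and 12.9). The difference of the changes was -2.02 (limma interaction, unadjusted p = 0.00378), which did not pass after adjustment over all genes (adjusted p = 0.994). In the treated assembled part, replicate 2 is the mixed library with Elf5 at 50.4 FPKM, and replicate 1 (Elf5 at 0.193) had Hoxb1 at 4.48, also below both untreated libraries.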

How the results depend on the processing

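The count of Hox genes past the threshold moved with the processing in 6 of the 13 comparisons and was 0 under each alternative in the other 7. With no filter on low values it was 1 for assembly of iPSC with BMP4 and for assembly plus BMP4 in iPSC, and 7 between lineages (7 of 36 tested, 19.4%, against 30.8% of all genes). For assembly of iPSC without BMP4 it was 0 with only the groups compared and with a pseudocount of 0.1. Without the mixed libraries it also moved for assembly plus BMP4 in iPSC, a fit that left a single library in the treated assembled group. Leaving out each library gave 0 to 1 for assembly of iPSC and of TSC without BMP4 and for assembly plus BMP4 in iPSC and in TSC, and 3 between lineages. With a replicate block the count was 1 for assembly of iPSC without BMP4, 3 between lineages and 0 elsewhere, so the block changed no Hox count; over all genes it moved assembly of TSC with BMP4 from 40 to 17 and the interaction in TSC from 235 to 134. Same-numbered libraries correlated between -0.185 and 0.119 in their deviations, and no label pairs them. Signs reversed for 5 of the named changes, none of which passed in the fit reported. Hoxb1 with assembly of BMP4-treated iPSC was at 0.10 with quantile normalization, 0.18 with upper quartile scaling and 0.0519 without the mixed libraries. With a library left out, Hoxb1 there ran from -0.53 to 0.45, Hoxd1 with BMP4 in the assembled iPSC part from -0.28 to 1.07, and Hoxb13 with BMP4 in TSC alone from -1.17 to 0.57, with assembly of TSC from -1.46 to 0.28 and with assembly plus BMP4 from -1.53 to 0.21. The cause was not tested, beyond the fewer samples or other genes of each fit. Over all genes, the calls ranged across alternatives from 6 to 1892 (1585 as reported) for assembly of iPSC, 3 to 2554 (2575) for assembly of TSC, 3 to 79 (8) for BMP4 in iPSC alone, 3 to 1677 (1625) for BMP4 in TSC alone, 1 to 44 (1) and 0 to 128 (67) for BMP4 in the assembled iPSC and TSC parts, 2 to 857 (767) and 1 to 179 (40) for assembly with BMP4, 2 to 1021 (517) and 7 to 3335 (3161) for assembly plus BMP4, 3 to 13 (3) and 12 to 469 (235) for the interactions, and 5850 to 6950 (6546) between lineages. Depth is unknown, so the counting error of values under 1 FPKM cannot be given.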

Other observations

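The noncoding genes within or beside the Hox clusters described here were chosen after their values were seen. Haglr, a long noncoding RNA of cluster D, was at 0.950 and 0.714 FPKM in iPSC alone, at 1.84 and 0.773 with BMP4, at 2.66 and 0.929 in the assembled part without BMP4 and at 8.71 and 1.65 with it. In TSC origin it was listed at 0 in 6 of 8 libraries and was at 0.311 at most. Evx1os, the noncoding partner of Evx1, was at 1.89 and 2.61 FPKM in iPSC alone and at 15.3 and 23.5 with BMP4. It was at 4.32 and 3.85 in the assembled part without BMP4 and at 18.3 and 6.56 with it, against 0.385 at most in TSC origin. Hotair, a noncoding RNA of cluster C, was at 0.0247 FPKM at most, and Hottip, at the 5′ end of cluster A, was listed at 0 in all 16 libraries. Hoxaas3 reached 5.48 FPKM in replicate 2 of TSC alone, the library in which Hoxb13 was highest, and 1.14 FPKM at most in the other 15 libraries.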
